A study of Homo sapiens and Mus musculus with 29 samples.

Results

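The 9 genes PDX1, CDX1, CDX2, ISX, SOX2, SOX9, NKX6-1, MNX1 and PROX1 encode transcription factors that give cells of the pancreas and the gut their identity, and they were taken by symbol from the 58719 gene identifiers of an RNA-seq table of HPAF-II tumors. Their mouse orthologs were taken in the same way from the 54446 identifiers of a table of KPC cell lines. All 9 were found in both tables. HPAF-II is a human pancreatic ductal adenocarcinoma cell line, and its cells were grown in the pancreas of NSG mice, an immunodeficient strain that lacks mature T, B and NK cells and keeps its own stroma and vessels.

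Every HPAF-II line carried Cas9 treatment. Control cells (Cas-9-EV) and HNF4G-KO cells (HNF4G KO-EV) held an empty vector, FOXA1-OE cells (Cas-9 + FOXA1) overexpressed the pioneer factor FOXA1, and HNF4G-KO + FOXA1-OE cells combined both changes. HNF4G is a nuclear receptor, and the knockout was a pool of 3 clones with frameshift mutations, so it does not stand for a single clone or for an uncloned population. There were 3 control tumors, 4 HNF4G-KO tumors and 3 FOXA1-OE tumors, each from its own mouse. There were also 5 HNF4G-KO + FOXA1-OE tumors from 4 mice (tumors 2 and 3 shared a mouse), 2 peritoneal metastases of HNF4G-KO mice, and 4 metastases from 3 HNF4G-KO + FOXA1-OE mice (1 in the spleen, 2 in peritoneal fat and 1 in the peritoneum). The KPC samples were 4 libraries of a tumor line and 4 libraries of a liver metastasis line from a mouse model of pancreatic cancer, whose genotype and treatment labels both read WT. Values are RPKM, reads normalized to gene length and to library size, so levels of different genes are compared per length. Depth was 33.1 to 69.6 M reads per HPAF-II library and 30.1 to 44.4 M reads per KPC library.

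PDX1 is required for the pancreas to form and later for beta cells, and MNX1 and NKX6-1 act in the pancreatic bud and in beta cells. SOX9 maintains pancreatic progenitors and ductal cells, and PROX1 acts in early pancreatic and liver progenitors and is the master factor of lymphatic endothelium. CDX2 and CDX1 specify the intestine, and ISX is an intestinal homeobox factor that restrains vitamin A uptake and conversion. SOX2 marks the foregut, the stomach and the esophagus, and in the embryonic gut tube it stands opposite CDX2 along the front-to-back axis.

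The labels were checked against the genes they name. FOXA1 stood at 6.32, 8.18 and 0.763 RPKM in FOXA1-OE tumors 1 to 3 and between 0.519 and 0.932 RPKM in control tumors, so FOXA1-OE tumor 3 did not exceed the controls. The values of SOX2, CDX2 and SOX9 that rest on this tumor are also given without it below. In HNF4G-KO + FOXA1-OE tumors FOXA1 ranged from 4.65 to 23.1 RPKM, while spleen metastasis 1 and metastases 3 and 4 of that group held 0.535, 1.30 and 1.55 RPKM. These 3 of the 4 metastases did not exceed HNF4G-KO tumors without the FOXA1 vector, which held 1.26 to 1.87 RPKM. HNF4G-KO metastases held less FOXA1, at 0.362 and 0.602 RPKM. Of the 4 HNF4G-KO + FOXA1-OE metastases, only spleen metastasis 1 did not exceed both of them. The group name of all 4 follows the label. HNF4G mRNA went against the label in HNF4G-KO tumors, at 5.72 to 8.42 RPKM against 2.48 to 3.47 RPKM in control tumors (limma adjusted p of 0.0698). In HNF4G-KO + FOXA1-OE tumors it ranged from 1.69 to 7.09 RPKM and overlapped the controls (log2 difference 0.48, limma adjusted p of 0.522). FOXA1-OE tumors held 0.495 to 3.04 RPKM. The clones carried frameshifts that the study's methods call heterozygotic, and the mRNA level does not check the protein.

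Of the 9 factors, 5 averaged 1 RPKM or more over the primary tumors and could be tested, namely SOX9, SOX2, CDX2, PDX1 and MNX1. The other 4, namely CDX1, ISX, NKX6-1 and PROX1, stayed below that minimum. SOX9 had the highest mean level in all 6 sample groups, although SOX2 exceeded it in FOXA1-OE tumor 2 and in HNF4G-KO tumor 2. In control tumors SOX9 stood at 33.4 ± 4.81 RPKM (SD, n = 3 mice), followed by SOX2 at 19.4 ± 4.29, PDX1 at 4.39 ± 1.21, CDX2 at 3.54 ± 1.14 and MNX1 at 3.17 ± 0.402. The ranges of PDX1, CDX2 and MNX1 overlapped, so their order in control tumors was not beyond their spread. In HNF4G-KO tumors the order was SOX9 at 20.4 ± 3.41, SOX2 at 16.2 ± 3.15, CDX2 at 7.33 ± 1.62, PDX1 at 4.60 ± 0.397 and MNX1 at 3.15 ± 0.396 RPKM (SD, n = 4 mice), and here the lowest CDX2 value lay above the highest PDX1 value while SOX9 and SOX2 overlapped.

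**Figure D1:**
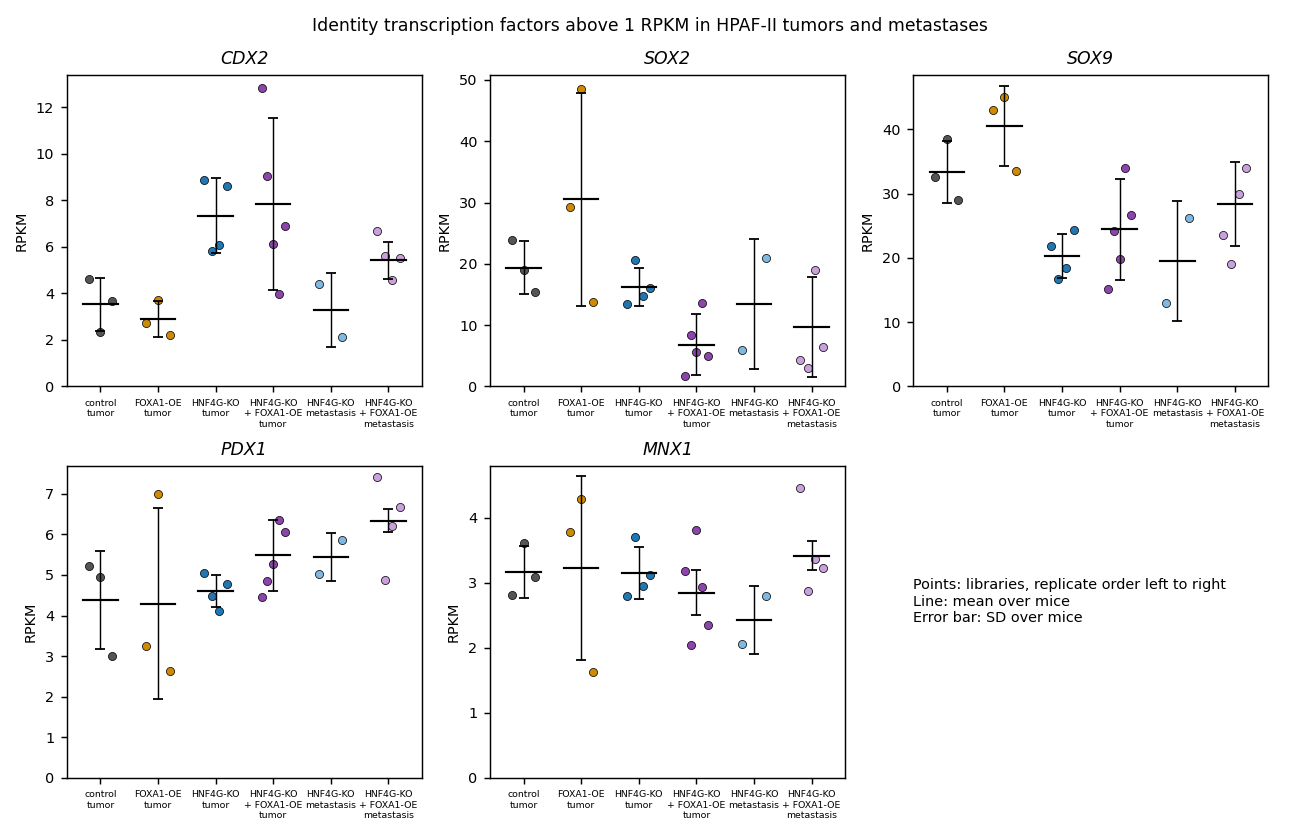
RPKM of CDX2, SOX2, SOX9, PDX1 and MNX1 (vertical axes, linear and starting at 0) in every library of the 4 tumor groups and the 2 metastasis groups (horizontal axes). Points are libraries, lines are means over mice and bars are SDs over mice. CDX2 in HNF4G-KO tumors (5.80 to 8.85 RPKM) sits above all 3 control tumors, and SOX2 in HNF4G-KO + FOXA1-OE tumors (1.78 to 13.6 RPKM) sits below all control and FOXA1-OE tumors.

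CDX2 (ENSG00000165556.9, GRCh38 chr13:27960918-27969315, minus strand) and SOX2 (ENSG00000181449.3, GRCh38 chr3:181711925-181714436, plus strand) were the members that passed the test in any primary tumor comparison. Their promoter windows, from 250 bases before to 50 bases after the annotated start (RefSeq, GRCh38.p14), are shown 5′ to 3′ on the gene's strand because these are the windows in which binding sites of FOXA, HNF4, CDX or SOX factors were looked for. The CDX2 window is chr13:27969266-27969565 on the minus strand and the SOX2 window is chr3:181711675-181711974 on the plus strand. Capitals mark every match to a motif searched.
CDX2: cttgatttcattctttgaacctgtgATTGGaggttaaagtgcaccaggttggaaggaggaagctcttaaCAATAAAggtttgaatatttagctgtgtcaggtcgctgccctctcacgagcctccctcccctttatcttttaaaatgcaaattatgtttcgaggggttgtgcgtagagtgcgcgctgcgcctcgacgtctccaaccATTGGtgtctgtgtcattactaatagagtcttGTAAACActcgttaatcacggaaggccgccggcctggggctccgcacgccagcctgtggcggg
SOX2: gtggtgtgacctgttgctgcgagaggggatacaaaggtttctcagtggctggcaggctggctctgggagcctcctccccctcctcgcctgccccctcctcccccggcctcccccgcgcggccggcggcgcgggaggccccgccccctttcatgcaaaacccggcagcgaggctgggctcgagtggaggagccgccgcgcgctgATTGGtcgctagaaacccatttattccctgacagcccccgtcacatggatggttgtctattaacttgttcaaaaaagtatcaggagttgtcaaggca

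The motifs, searched on both strands, were forkhead TGTTTAC, HNF4 CAAAGTCCA, CDX TTTATNG, SOX CATTGTT, the CCAAT box CCAAT and the TATA box TATAAA, none of which overlapped another in these windows. The CDX2 window held 1 forkhead match, GTAAACA, beginning 13 bases before the start, and 1 CDX match, CAATAAA, beginning 181 bases before it. Among 35116 promoters of the same length, 3.42% held the forkhead letters and 9.73% the CDX letters. The CDX2 window also held 2 CCAAT boxes and the SOX2 window held 1, and 34.6% of all promoters held that box. The HNF4 letters were in 0.384% of promoters, the SOX letters in 3.33% and the TATA letters in 11.5%, and none of these 3 was found in either window. Promoter entries were matched for 5 of the 9 members, namely SOX2, NKX6-1, MNX1, CDX2 and ISX, and forkhead or CDX letters were found in CDX2 alone. A match is a match of letters, and binding was not measured in the data used here.

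CDX2, the intestinal master factor, was at 4.59, 2.33 and 3.68 RPKM in control tumors 1 to 3 and at 8.85, 5.80, 6.08 and 8.61 RPKM in HNF4G-KO tumors 1 to 4. Every HNF4G-KO tumor was above every control tumor. On the log2(RPKM + 1) scale the difference was 0.89 (SE 0.29, 95% interval 0.26 to 1.52), with a limma adjusted p of 0.063 over 14269 genes, which missed 0.05. The two-sided exact permutation test gave p = 0.0571, the smallest that 4 against 3 mice allow. In this comparison 12.2% of all genes tested (1736) were called and none of the 5 members tested was. The 1736 calls became 284 to 1165 when 1 mouse was left out, with 284 without control tumor 2, 538 without control tumor 3, and 669, 709 and 745 without HNF4G-KO tumors 3, 4 and 2. Of the 5, CDX2 and SOX9 had groups that did not overlap, as did 46.4% of all genes tested. Without 1 mouse, the log2 difference of CDX2 was 0.68 to 1.06, with a limma adjusted p of 0.0662 to 0.247. That of SOX9 was -0.79 to -0.59, with a limma adjusted p of 0.0866 to 0.236. For both genes the smallest difference was the one without control tumor 2, which held the lowest CDX2 and the highest SOX9 of the controls. That tumor also held the most acinar (878 RPKM) and islet (69.2 RPKM) markers of normal host pancreas. Their part in these differences was not tested. A fit of only the control and HNF4G-KO tumors left out the spread of FOXA1-overexpressing tumors. In that fit CDX2 had a limma adjusted p of 0.00954 and SOX9 of 0.00855, and 39.7% of 14088 genes were called.

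In FOXA1-OE tumors CDX2 stood at 2.74, 3.72 and 2.20 RPKM, within or just below the control range. In HNF4G-KO + FOXA1-OE tumors 1 to 5 it was 12.8, 9.06, 6.13, 3.98 and 6.88 RPKM, the widest spread of any group. All 5 of these tumors lay above the 3 FOXA1-OE tumors, a lack of overlap seen in 14.6% of all genes tested, although tumor 4 lay within the control range. CDX2 therefore rose between FOXA1-OE and HNF4G-KO + FOXA1-OE tumors, from a mean of 2.89 ± 0.767 to 7.82 ± 3.69 RPKM (SD, n = 3 and 4 mice), with a log2 difference of 1.10 (SE 0.29, 95% interval 0.47 to 1.73) and a limma adjusted p of 0.0359. The exact permutation p was 0.0571, the smallest possible. The call was lost without FOXA1-OE tumor 1 (limma adjusted p of 0.103), FOXA1-OE tumor 3 (0.0948), HNF4G-KO + FOXA1-OE tumor 1 (0.0761) or HNF4G-KO + FOXA1-OE tumors 2 and 3 (0.0703), with no RPKM filter (0.0864), with the tumor number as a replicate block (0.0592) and with only the 2 groups in the fit (0.192), while the log2 difference kept its sign and ranged from 0.85 to 1.34 without 1 mouse.

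Against control tumors, CDX2 in HNF4G-KO + FOXA1-OE tumors differed by 0.89 on the log2 scale (95% interval 0.26 to 1.52, limma adjusted p of 0.105, exact permutation p = 0.114). Without HNF4G-KO + FOXA1-OE tumor 4 the difference was 1.13 with a limma adjusted p of 0.0281. Between HNF4G-KO and HNF4G-KO + FOXA1-OE tumors the log2 difference of CDX2 was 0.00 (95% interval -0.58 to 0.59), and between control and FOXA1-OE tumors it was -0.21 (95% interval -0.88 to 0.47), and differences of up to these bounds could not be told from none with these mice.

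SOX2, the foregut factor, was at 29.2, 48.5 and 13.8 RPKM in FOXA1-OE tumors and at 1.78, 8.45, 5.59, 13.6 and 4.94 RPKM in HNF4G-KO + FOXA1-OE tumors. The groups did not overlap, although FOXA1-OE tumor 3 at 13.8 RPKM and HNF4G-KO + FOXA1-OE tumor 4 at 13.6 RPKM nearly met. SOX2 was lower in the combined group by a log2 difference of -2.09 (SE 0.47, 95% interval -3.09 to -1.09), with a limma adjusted p of 0.0153. The mean over mice fell from 30.5 ± 17.4 to 6.83 ± 4.98 RPKM (SD, n = 3 and 4). With CDX2, 2 of the 5 members tested passed, 1 in each direction, against 7.86% of all genes tested. The exact permutation p for SOX2 was 0.0571, the smallest possible. The call was lost without FOXA1-OE tumor 1 (limma adjusted p of 0.0599) or FOXA1-OE tumor 2 (0.0507) and with only the 2 groups in the fit (0.152), and the log2 difference was between -2.55 and -1.67 without 1 mouse. Without FOXA1-OE tumor 3, whose FOXA1 was in the control range, SOX2 differed by -2.55 with a limma adjusted p of 0.00772.

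Control tumors held SOX2 at 23.9, 19.0 and 15.3 RPKM and HNF4G-KO tumors at 13.4, 20.7, 14.7 and 16.1 RPKM, and these groups overlapped. The log2 difference between them was -0.24 (95% interval -1.24 to 0.76, limma adjusted p of 0.755). SOX2 in all 5 HNF4G-KO + FOXA1-OE tumors was below every control tumor (a lack of overlap that 18.9% of all genes tested showed), with a log2 difference of -1.61 (95% interval -2.61 to -0.60, limma adjusted p of 0.0662, exact permutation p = 0.0571). In that comparison 4.70% of all genes tested were called and no member was. Against HNF4G-KO tumors the log2 difference of SOX2 was -1.37 (95% interval -2.29 to -0.44, limma adjusted p of 0.197), where 0.0561% of all genes tested were called and no member was, and FOXA1-OE tumors differed from control by 0.48 (95% interval -0.59 to 1.56, limma adjusted p of 0.845), where 0% were called (limma called 0 genes and 652 had an unadjusted p under 0.05). Without FOXA1-OE tumor 3 the log2 difference of FOXA1-OE tumors from control was 0.94 for SOX2, -0.08 for CDX2 and 0.40 for SOX9, none of them called.

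Whether the FOXA1-OE difference was the same with and without the HNF4G-KO label was tested directly. For SOX2 the FOXA1-OE difference was lower where the HNF4G-KO label was present, by a log2 difference of -1.85 (SE 0.66, 95% interval -3.27 to -0.43). The unadjusted limma p was 0.0144 and the adjusted p was 0.471, so this difference failed the correction, as it did without FOXA1-OE tumor 3 (-2.31, limma adjusted p of 0.207). No member passed, against 0.0350% of all genes tested. For CDX2 the same test gave 0.21 with a limma adjusted p of 0.934.

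**Figure D2:**
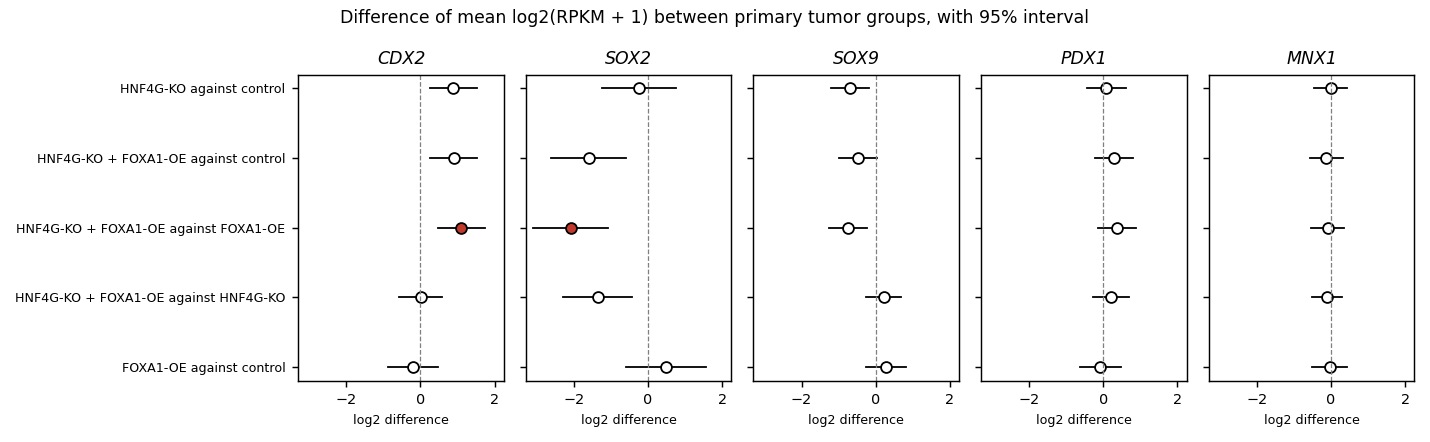
Log2 differences of log2(RPKM + 1) with 95% intervals (horizontal axis) for CDX2, SOX2, SOX9, PDX1 and MNX1 in the 5 comparisons of primary tumors. Filled red points have a limma adjusted p under 0.05, and only CDX2 (1.10) and SOX2 (-2.09) in HNF4G-KO + FOXA1-OE against FOXA1-OE tumors are filled.

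SOX9 (ENSG00000125398.6, chr17:72121020-72126416, plus strand), the ductal and progenitor factor, was at 32.7, 38.5 and 29.0 RPKM in control tumors and 21.8, 16.8, 18.4 and 24.4 RPKM in HNF4G-KO tumors. Every HNF4G-KO tumor was below every control tumor. The log2 difference was -0.69 (SE 0.23, 95% interval -1.19 to -0.19) with a limma adjusted p of 0.0684 and an exact permutation p of 0.0571, the smallest possible. Shifting all samples to a common median gave a limma adjusted p of 0.0418 for SOX9. SOX9 stood at 43.1, 45.0 and 33.5 RPKM in FOXA1-OE tumors and at 15.2, 24.1, 19.9, 34.0 and 26.7 RPKM in HNF4G-KO + FOXA1-OE tumors. Tumor 4 of the combined group lay just above FOXA1-OE tumor 3, and the rest lay below all FOXA1-OE tumors. That log2 difference was -0.75 (95% interval -1.25 to -0.25, limma adjusted p of 0.0662), and without HNF4G-KO + FOXA1-OE tumor 4 the limma adjusted p was 0.0267. Without FOXA1-OE tumor 3 it was 0.0567. SOX9 in the combined group differed by -0.48 from control (95% interval -0.98 to 0.02) and by 0.21 from HNF4G-KO tumors (95% interval -0.25 to 0.68), and FOXA1-OE tumors differed from control by 0.27 (95% interval -0.27 to 0.81), none of them called.

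PDX1 (ENSG00000139515.5, chr13:27920000-27926313, plus strand), the pancreatic master factor, was at 5.22, 4.94 and 3.00 RPKM in control tumors and 5.04, 4.48, 4.12 and 4.77 RPKM in HNF4G-KO tumors. In FOXA1-OE tumors PDX1 was 3.26, 6.99 and 2.63 RPKM, and in HNF4G-KO + FOXA1-OE tumors 4.47, 4.84, 5.28, 6.35 and 6.05 RPKM. The PDX1 groups overlapped in every comparison of primary tumors, with log2 differences between -0.09 and 0.37 and limma adjusted p between 0.376 and 0.938. The largest of these PDX1 differences, HNF4G-KO + FOXA1-OE against FOXA1-OE, had a 95% interval of -0.15 to 0.89. Without FOXA1-OE tumor 2, which held the highest PDX1 of its group, this log2 difference was 0.71 with a limma adjusted p of 0.041.

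MNX1 (ENSG00000130675.14, chr7:156994051-157010663, minus strand), a factor of the pancreatic bud and of beta cells, was at 2.81, 3.61 and 3.09 RPKM in control tumors and 2.80, 3.71, 2.95 and 3.12 RPKM in HNF4G-KO tumors. MNX1 in FOXA1-OE tumors was 3.78, 4.29 and 1.62 RPKM and in HNF4G-KO + FOXA1-OE tumors 3.18, 2.04, 3.81, 2.93 and 2.36 RPKM. All 4 groups overlapped. The log2 differences of MNX1 were between -0.13 and -0.01 and its limma adjusted p between 0.711 and 0.982. FOXA1-OE tumor 3, the tumor whose FOXA1 was in the control range, held the lowest PDX1, CDX2, SOX2, SOX9 and MNX1 values of its group, and its median log2(RPKM + 1) over genes tested, 2.49, was the lowest of the primary tumors.

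The 4 remaining factors, CDX1 (ENSG00000113722.16, chr5:150166778-150184558), ISX (ENSG00000175329.12, chr22:35066136-35087387), NKX6-1 (ENSG00000163623.9, chr4:84491985-84499292) and PROX1 (ENSG00000117707.15, chr1:213983181-214041510), were near 0 in the HPAF-II samples. CDX1, the second intestinal CDX factor, was at 26 reads (0.419 RPKM) in HNF4G-KO + FOXA1-OE tumor 4 and 80 reads (0.835 RPKM) in tumor 5 of that group, and at 0 to 6 reads in every other library. These were not the tumors with the highest CDX2, which were tumors 1 and 2. ISX was at 0 to 6 reads in all libraries and NKX6-1 at 0 to 28 reads, with the most NKX6-1 in HNF4G-KO + FOXA1-OE metastasis 2 (0.130 RPKM). Values of 3 reads or fewer in a library allow no statement beyond counting error. Every CDX1 and ISX count in the HPAF-II libraries was even, so fewer independent fragments than reads may stand behind these values, which was not tested.

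PROX1 was at 22, 84 and 2 reads in control tumors, 15, 27, 30 and 30 reads in HNF4G-KO tumors, 0, 4 and 2 reads in FOXA1-OE tumors, and 20, 14, 2, 13 and 42 reads in HNF4G-KO + FOXA1-OE tumors. The 84 reads of control tumor 2 (0.268 RPKM) were the most of any library. That tumor also had the highest summed level of the 10 islet markers (69.2 RPKM, against at most 9.61 in the others) and of the 10 acinar markers (878 RPKM, against at most 36.7), both of which mark normal pancreas of the host. Their part in the PROX1 value was not tested. The summed level of 9 lymphatic endothelial markers lay between 0.0840 and 0.495 RPKM in all primary tumors. In control tumor 2 it was 0.338 RPKM, the highest of the control tumors, with 1 of the 9 markers at 0.

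**Figure D3:**
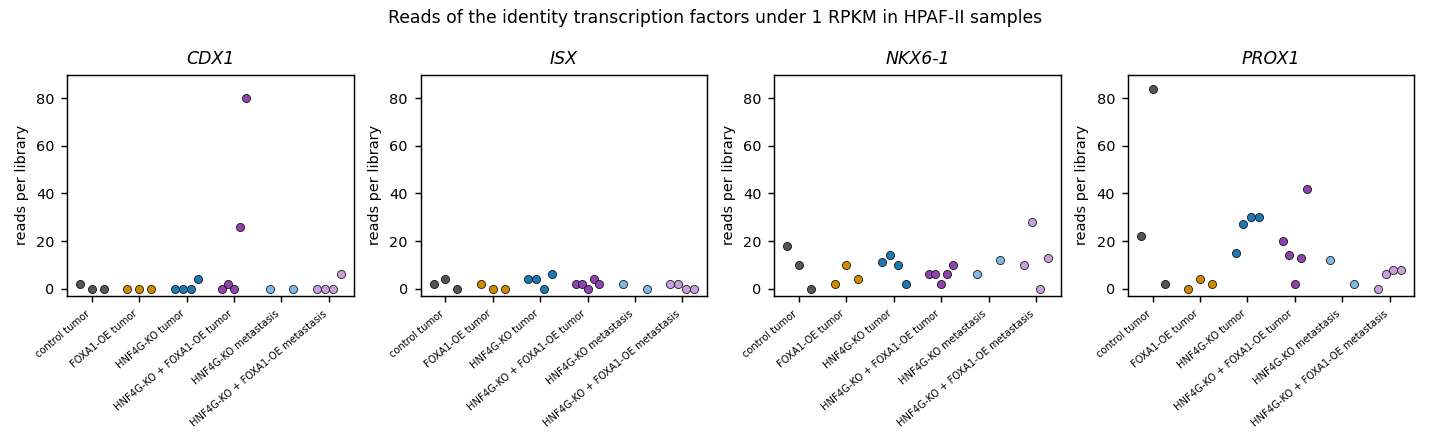
Estimated reads per library (vertical axes) of CDX1, ISX, NKX6-1 and PROX1 in the 6 sample groups (horizontal axes), where each point is a library. Most libraries lie near 0, apart from CDX1 in HNF4G-KO + FOXA1-OE tumors 4 and 5 (26 and 80 reads) and PROX1 in control tumor 2 (84 reads).

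In bulk tumors, fewer cells that express a gene and less RNA per cell cannot be told apart. Host stroma also differed between tumors. The summed level of 12 stromal markers, as far as mouse reads were assigned to human genes, was 204, 198 and 61.3 RPKM in control tumors 1 to 3, 54.3 to 75.9 RPKM in HNF4G-KO tumors, 38.0 to 165 RPKM in FOXA1-OE tumors and 53.5 to 123 RPKM in HNF4G-KO + FOXA1-OE tumors. None of the 6 stromal markers tested was called in any comparison of primary tumors. The mean of these markers was also used as a covariate. With it no member was called between control and HNF4G-KO tumors, in a fit that called 3221 of 14269 genes. There the SOX2 difference changed sign and became positive. The log2 difference of SOX2 between HNF4G-KO + FOXA1-OE and HNF4G-KO tumors was -1.57 with a limma adjusted p of 0.0428. That of SOX9 between HNF4G-KO + FOXA1-OE and FOXA1-OE tumors had a limma adjusted p of 0.0225. Of 8 hepatocyte markers, SERPINA1, a protease inhibitor that epithelial cells also make, was the only one tested, and it fell between control and HNF4G-KO tumors by 2.70 on the log2 scale (limma adjusted p of 0.000224).

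Other genes of pancreatic and gut identity were read from 5 lists, from which the 9 members had been taken out. Between control and HNF4G-KO tumors 6.18% of all genes tested were called higher and 5.99% lower, and the counts of each list stand beside these shares. Of 30 other pancreatic and endodermal transcription factors 11 could be tested, and between control and HNF4G-KO tumors 2 rose and 1 fell, with a median log2 difference of 0.16 against 0.01 over all genes tested. HNF4A, the liver and gut paralog of HNF4G, rose by 0.84 (limma adjusted p of 0.0172), GATA6, an endoderm and classical pancreatic cancer factor, rose by 0.45 (limma adjusted p of 0.0482), and ISL1, an islet factor, fell by 0.90 (limma adjusted p of 0.00325). Of 21 other gut transcription factors 9 were tested and 2 rose, with a median log2 difference of 0.71. KLF5, which maintains intestinal crypt proliferation, rose by 1.27 from a mean of 47.2 to 115 RPKM (limma adjusted p of 0.0025), and CREB3L3, a liver and intestinal factor, rose by 1.09 (limma adjusted p of 0.00671).

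The structural and secreted genes of gut and duct were read in the same way. Of 20 intestinal genes 10 were tested and 4 rose between control and HNF4G-KO tumors, with a median log2 difference of 0.84. The adhesion molecule CEACAM5 went from 118 to 716 RPKM (log2 difference 2.82) and the cadherin CDH17, a known CDX2 target, from 31.1 to 121 RPKM (log2 difference 2.05). Of 14 gastric and duodenal genes 11 were tested and 5 rose, with a median of 1.16, led by CLDN18, a tight junction gene, from 0.133 to 9.98 RPKM (log2 difference 3.17) and TFF1, a stomach trefoil peptide, from 66.6 to 460 RPKM (log2 difference 2.76). Of 12 duct genes 8 were tested, 3 rose and 1 fell, with a median of -0.01, and those that rose were CA2, TSPAN8 and CD24. The gene that fell, SPP1, which encodes osteopontin, fell by 1.16 and is named here after its value was seen. SOX9 and SOX2 themselves were not among the genes called there.

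The same lists were read in the comparison in which CDX2 rose and SOX2 fell. Of all genes tested, 3.32% were called higher and 4.54% lower there. Between FOXA1-OE and HNF4G-KO + FOXA1-OE tumors 5 of the 10 intestinal genes rose and none fell, with a median log2 difference of 1.08 against -0.03 over all genes, and FABP1, an enterocyte fatty acid carrier, rose by 2.93 (limma adjusted p of 0.0115), CEACAM5 by 3.07 (limma adjusted p of 0.00269) and CDH17 by 2.87 (limma adjusted p of 0.000464). Of the 11 gastric and duodenal genes 3 rose, with a median of 1.10, and they were CAPN9 by 2.00, CTSE by 1.47 and ANXA10 by 1.15. Among pancreatic and endodermal factors HNF4A rose by 0.87 and ISL1 fell by 0.72, and among gut factors CREB3L3 rose by 1.62. Of the 8 duct genes 3 rose, with a median of 0.50. Against control tumors, HNF4G-KO + FOXA1-OE tumors had 4 of 10 intestinal genes, 2 of 11 gastric and duodenal genes, 2 of 8 duct genes, 1 of 9 gut factors and 1 of 11 pancreatic and endodermal factors higher, and ISL1 lower, where 2.14% of all genes tested were called higher and 2.55% lower. Between HNF4G-KO and HNF4G-KO + FOXA1-OE tumors the one list gene called was CLDN18, which fell by 1.98 (limma adjusted p of 0.0422), and between control and FOXA1-OE tumors none was called. These comparisons share tumor groups, so their counts are not independent of each other.

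Across the 14 mice with primary tumors, CDX2 and SOX9 ran opposite to each other (Pearson r -0.81, Spearman rho -0.78) and so did CDX2 and SOX2 (-0.65 and -0.56), while SOX2 and SOX9 ran together (0.64 and 0.56). Taken within groups, r was -0.49, -0.45 and 0.73, respectively. PDX1 with SOX2 and PDX1 with SOX9 had r of 0.68 and 0.59 within groups, but 0.02 and 0.06 across all mice. PDX1 with MNX1 and SOX2 with MNX1 had r of 0.48 and 0.47 within groups. The remaining pairs of tested members lay between 0.04 and 0.17 within groups. These are descriptions over 14 mice whose groups differ in level. Of 14269 genes, those most like CDX2 across the mice were TRIM31 (r 0.965), DNAJB12 (0.955) and IL22RA1 (0.951), those most like SOX2 were HIP1 (0.954), LRIG1 (0.949) and BICD1 (0.946), and those most like SOX9 were NXN (0.933), LIX1L (0.921) and the long noncoding RNA LCIIAR (0.918). For PDX1 they were DBF4B (0.905), HOXB9 (0.880) and PEX26 (0.870), and for MNX1 they were SND1 (0.922), MEX3D (0.908) and ZNF839 (0.895). No member was among the 3 most like another member.

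PDX1 and CDX2 are neighbors on chromosome 13, with starts 49315 bases apart. Of the 14 genes that start within 200000 bases of either, 6 were expressed enough to be tested, and none was called between control and HNF4G-KO tumors. The poly(A) nuclease subunit gene PAN3 (mean 7.99 RPKM) differed by 0.43 (limma adjusted p of 0.108) and the noncoding RNA LINC00543 (mean 3.18 RPKM) by 0.22 (limma adjusted p of 0.313), while CDX2 differed by 0.89 and PDX1 by less than 0.1. PLUT, the noncoding RNA beside PDX1, had a mean of 0.226 RPKM.

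SOX2 lies within SOX2-OT on the same strand, and SOX9 lies within the span of SOX9-AS1 on the opposite strand. SOX2-OT was at 0.0603 to 0.0845 RPKM in control tumors, 0.115 to 0.155 in FOXA1-OE tumors, 0.0351 to 0.0518 in HNF4G-KO tumors and 0.0123 to 0.0877 in HNF4G-KO + FOXA1-OE tumors. SOX9-AS1 was at 0.0772 to 0.130, 0.119 to 0.161, 0.0238 to 0.0568 and 0.0206 to 0.0714 RPKM in the same order. Both were highest in FOXA1-OE tumors, at levels far below SOX2 and SOX9. MNX1-AS1 had means between 4.42 and 5.75 RPKM in the 4 primary tumor groups, above MNX1 itself. The strand setting of the read counting is not given in the sources used here, so reads of SOX9 and SOX9-AS1 may not be fully separated. MNX1-AS1 begins beside the start of MNX1 on the opposite strand and does not overlap it.

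In metastases no member passed the test, against 0.0426% of 14099 genes in the HNF4G-KO comparison and 0.00709% in the HNF4G-KO + FOXA1-OE comparison. CDX2 was at 4.39 and 2.14 RPKM in the 2 HNF4G-KO peritoneal metastases, below all 4 HNF4G-KO tumors, and groups without overlap made up 33.0% of the 14099 genes. The log2 difference was -0.998 (SE 0.33, 95% interval -1.72 to -0.28, limma adjusted p of 0.268), and the exact permutation p was 0.133, the smallest possible. In HNF4G-KO + FOXA1-OE metastases 1 to 4 CDX2 was 6.65, 5.62, 4.56 and 5.54 RPKM, within the range of the tumors, with a log2 difference of -0.37 (95% interval -1.01 to 0.27, limma adjusted p of 0.632). Stromal markers summed to 79.9 and 430 RPKM in the HNF4G-KO metastases and 80.1 to 223 RPKM in the HNF4G-KO + FOXA1-OE metastases, and islet and acinar markers to at most 0.269 and 1.08 RPKM. The part of the stroma in the metastasis values was not tested beyond its use as a covariate.

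SOX2 was at 5.98 and 20.9 RPKM in the HNF4G-KO metastases and 4.25, 3.05, 18.9 and 6.45 RPKM in the HNF4G-KO + FOXA1-OE metastases, and SOX9 was at 13.0 and 26.2 RPKM and 23.6, 19.0, 29.9 and 34.0 RPKM. Both overlapped their tumors. PDX1 was at 5.02 and 5.85 RPKM and at 7.42, 4.87, 6.21 and 6.67 RPKM, and MNX1 at 2.05 and 2.79 RPKM and at 4.45, 2.88, 3.36 and 3.23 RPKM. Taken as mouse means, with the 2 metastases of mouse K and tumors 2 and 3 of their shared mouse averaged, MNX1 in the 3 HNF4G-KO + FOXA1-OE mice with metastases was above the 4 tumor values, although tumor 3 alone (3.81 RPKM) exceeded metastases 2, 3 and 4. Such a lack of overlap was seen in 6.53% of 14099 genes. In the HNF4G-KO mice MNX1 was lower in both metastases than in all 4 tumors, a lack of overlap seen in 33.0% of 14099 genes. The highest metastasis (2.79 RPKM) and the lowest tumor (2.80 RPKM) nearly met. The limma adjusted p was 0.587 for HNF4G-KO + FOXA1-OE and 0.442 for HNF4G-KO.

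The tumor and metastases of the same mouse could be set side by side in 4 mice, 2 of each genotype. PDX1 was higher in the metastasis in 4 of 4 mice, by log2 differences of 0.06 to 0.36. The share of all genes with the same sign in 4 of 4 mice was not determined. In both genotypes the PDX1 values of metastases and tumors overlapped. Its limma adjusted p was 0.595 for HNF4G-KO and 0.622 for HNF4G-KO + FOXA1-OE. CDX2 was lower in 3 of 4, by -0.34 and -1.61 in the HNF4G-KO mice E and G and -0.96 in the HNF4G-KO + FOXA1-OE mouse K, and it was 0.39 higher in mouse N. SOX2 differed by -1.63 and 0.36 in mice E and G and by 0.73 and -0.97 in mice K and N, without a shared direction. With the mouse as a block in the fit no member passed.

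In the KPC lines the labels of the libraries have to be described first. Over 12585 genes, the difference between the liver metastasis line and the tumor line in replicates 1 and 2 ran opposite to that in replicates 3 and 4 (Pearson r -0.81, Spearman rho -0.72 across genes, which are not independent replicates). Replicates 3 and 4 of each line thus went against replicates 1 and 2 of the same label. Whether the labels of some libraries were exchanged was not tested, and if they were, the line named as higher for a replicate pair would be the other one. The labels were kept, and each difference is also given for replicates 1 and 2 and for 3 and 4. The study's methods call the RNA-seq replicates biological, while the labels do not say whether the KPC libraries were separate cultures, so their p-values measure the spread between these libraries.

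Pdx1, Cdx2 and Sox9 were expressed in both KPC lines, and Isx reached 1 RPKM on average, so that 4 of the 9 orthologs were tested. Pdx1 was at 30.6, 36.7, 17.3 and 25.5 RPKM in the tumor line and 24.5, 26.7, 30.9 and 34.1 RPKM in the liver metastasis line. Cdx2 was at 16.9, 14.7, 8.40 and 14.3 RPKM and 18.9, 16.7, 10.3 and 12.5 RPKM, and Sox9 at 26.5, 26.0, 60.0 and 39.1 RPKM and 39.8, 51.1, 33.0 and 21.9 RPKM. The lines overlapped for all of them. With all libraries no ortholog was called, against 0% of all genes tested, where limma called 0 genes and 109 had an unadjusted p under 0.05. The log2 differences were 0.11 for Pdx1, 0.10 for Cdx2, -0.03 for Sox9 and 0.49 for Isx (95% interval -1.42 to 2.39).

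Isx and Sox2 differed by library pair rather than by label. Isx was at 0.115, 0.0272, 2.02 and 3.88 RPKM (8, 2, 161 and 242 reads) in tumor line libraries 1 to 4 and at 7.51, 6.39, 0 and 0.0344 RPKM (507, 373, 0 and 2 reads) in liver metastasis line libraries 1 to 4. Sox2 was at 0, 0, 2.01 and 1.96 RPKM in the tumor line and 1.48, 2.18, 0 and 0 RPKM in the liver metastasis line. Both genes were thus high in the liver metastasis line in replicates 1 and 2 and in the tumor line in replicates 3 and 4. Against a floor of 3 reads per library, Sox2 was at least 39.6-fold and 61.4-fold higher in the liver metastasis line in replicates 1 and 2, and at least 41.6-fold and 43.6-fold higher in the tumor line in replicates 3 and 4.

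Within replicates 1 and 2 the liver metastasis line differed from the tumor line by 2.89 for Isx (limma adjusted p of 0.00138), 0.76 for Sox9 (limma adjusted p of 0.0159), -0.38 for Pdx1 (limma adjusted p of 0.0559) and 0.16 for Cdx2 (limma adjusted p of 0.279), in a fit that called 25.5% of all genes. Within replicates 3 and 4 the differences were -1.92 for Isx, -0.83 for Sox9, 0.60 for Pdx1 and 0.05 for Cdx2, with limma adjusted p of 0.0845, 0.299, 0.309 and 0.959, in a fit that called 0.635% of all genes. Isx, Sox9 and Pdx1 changed sign between the pairs, and Cdx2 did not. Cdx1 and Mnx1 were at 0 in all but 1 KPC library each, with 2 and 4 reads, and Nkx6-1 and Prox1 were at 0 in all 8.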

How the data were processed

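RNA-seq of 21 HPAF-II xenograft samples and 8 KPC line libraries was used. The authors aligned reads and deposited RPKM values per gene in a table for each species. Submitters' processing notes name STAR 2.6.1a and featureCounts 2.0.4. The count test of the study's methods needs raw counts and was not used here. The KPC table holds 12 further columns of values that belong to no sample used, and these were left out. The study's methods and the processing notes name different human builds. Positions are GENCODE, GRCh38, matched by identifier without its version (58205 of 58719 human and 54409 of 54446 mouse identifiers). Mouse reads were not stated to have been removed from xenograft libraries.

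Depth was estimated from the step that a read adds to the RPKM of low genes. RPKM values were analyzed as log2(RPKM + 1) with limma 3.58.1 in R 4.3.3 (lmFit, eBayes with a trend), over genes averaging 1 RPKM or more, with Benjamini-Hochberg adjustment over all of them and a threshold of 0.05. The 4 groups of primary tumors shared a fit, tumors (or metastases) sharing a mouse entered as their log2 mean, and metastases and KPC lines had fits of their own. Fits were tested on simulated data with 200 genes changed. Exact permutation tests were two-sided. On the log2(RPKM + 1) scale changes of low genes are understated. Python 3.11.15, pandas 2.3.3, scipy 1.17.1 and matplotlib 3.10.9 made the tables and figures.

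The genes named were the 9 members, FOXA1 and HNF4G, the 3 genes most like each tested member, up to 3 called genes of each list, neighbors of PDX1 and CDX2, and overlapping transcripts. SERPINA1 comes from the host marker lists. The value of 1 gene of the lists is not reported here. The members and lists were chosen with earlier results of these data known, so they are no independent support for any pattern. Same-numbered tumors of different groups correlated between -0.27 and 0.63 in their deviations from group means. Differently numbered tumors correlated between -0.64 and 0.69. The numbers were therefore not taken as pairs, although correlations over so few mice cannot exclude a shared batch. Metastases were paired by mouse from the labels (correlations -0.026 to 0.303). Alternatives were a pseudocount of 0.1, no filter, median scaling, each mouse or library left out, a block, fits of the 2 groups alone, separate samples, a stromal covariate, no spleen metastasis, and KPC replicate pairs.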

Additional observations from a re-analysis of the deposited data

Results flagged for a closer look

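Values that stood apart from the rest of their group were looked for in 39 pairs of a gene and a group of 4 to 10 samples. Dixon's 95% limit for the gap to the nearest sample was used, with samples of the same mouse counted separately, and 5 pairs passed it. For values spread normally chance gives about 1 in 20. Where all other samples are at 0, as for CDX1, Cdx1 and Mnx1 here, any value above 0 passes, so that rate does not apply. All 5 were in genes close to 0. CDX1 was 0.0355 RPKM in HNF4G-KO tumor 4 and 0.0512 RPKM in HNF4G-KO + FOXA1-OE metastasis 4, with all other samples of those groups at 0. PROX1 was 0.0318 RPKM in HNF4G-KO tumor 1, below the other 3 tumors of that group. In the KPC liver metastasis line Cdx1 was 0.0380 RPKM in library 3 and Mnx1 was 0.0472 RPKM in library 1, with the other libraries at 0. These values rest on 2 to 15 reads each.

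MNX1 differed in opposite directions between tumor and metastasis of the same mouse in the 2 genotypes. The log2 difference was -0.63 and -0.12 in HNF4G-KO mice E and G and 0.14 and 0.10 in HNF4G-KO + FOXA1-OE mice K and N. The difference between the genotypes was not tested, and how many of all genes show such opposite directions was not determined.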

How the results depend on the processing

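Of 312 values of single members under other settings or without a mouse or library, 271 kept their direction and side of the threshold, 10 lost the call, 13 gained it and 18 changed sign. Members called between control and HNF4G-KO tumors went from 0 to 1 after shifting to a common median (SOX9), to 2 with only the 2 groups in the fit and to 2 with the replicate block (CDX2 and SOX9), a block on tumor numbers that the deviations did not bear out as pairs. They went from 0 to 1 between HNF4G-KO and HNF4G-KO + FOXA1-OE tumors with the stromal covariate (SOX2). Between FOXA1-OE and HNF4G-KO + FOXA1-OE tumors they went from 2 to 1 with no RPKM filter (CDX2 was lost) and to 0 with only the 2 groups. In KPC lines they went from 0 to 2 for replicates 1 and 2 alone. Without 1 mouse the count ran from 0 to 2 for HNF4G-KO + FOXA1-OE against control (2 without HNF4G-KO + FOXA1-OE tumor 4) and from 0 to 3 against FOXA1-OE (0 without FOXA1-OE tumor 1, 3 without HNF4G-KO + FOXA1-OE tumor 4). With the replicate block that count was 2, with CDX2 lost and SOX9 gained. Signs changed for SOX2 between control and HNF4G-KO tumors with the stromal covariate (0.42), for CDX2 between HNF4G-KO and HNF4G-KO + FOXA1-OE tumors with a pseudocount of 0.1 (-0.0079), with the replicate block (-0.0014) and without 1 mouse (-0.25 to 0.25, and -0.011 without HNF4G-KO + FOXA1-OE tumors 2 and 3), and for CDX2 in HNF4G-KO + FOXA1-OE metastases with the stromal covariate (0.016). In KPC lines signs changed for Pdx1 (-0.38) and Sox9 (0.76) in replicates 1 and 2, for Isx (-1.92) in replicates 3 and 4, and without 1 library for Pdx1 (-0.084 to 0.26), Cdx2 (-0.093 to 0.25), Isx (-0.042 to 0.99) and Sox9 (-0.21 to 0.21). The cause of these changes was not tested. Over all genes, the number called moved by over 1.5 times in several fits. With only the 2 groups it was 5595 in place of 1736 for HNF4G-KO against control, 25 in place of 670 for HNF4G-KO + FOXA1-OE against control and 86 in place of 1122 against FOXA1-OE. The stromal covariate gave 3221 for HNF4G-KO against control and 152 in place of 8 between HNF4G-KO and HNF4G-KO + FOXA1-OE tumors, while the replicate block gave 344 for HNF4G-KO + FOXA1-OE against control. Without the filter, FOXA1-OE against control had 3 calls in place of 0, and the comparisons with 8 or fewer calls ranged from 0 to 16 under the remaining settings that used all samples. KPC replicate pairs alone gave 3174 and 81 in place of 0. Without 1 mouse the number was 284 to 1165 for HNF4G-KO against control (284 without control tumor 2), 133 to 687 for HNF4G-KO + FOXA1-OE against control (133 without control tumor 3, 210 without control tumor 2) and 571 to 1439 against FOXA1-OE (571 without FOXA1-OE tumor 1). It was 0 to 353 in place of 6 for HNF4G-KO metastases (353 without metastasis 1) and 0 to 57 in place of 1 for HNF4G-KO + FOXA1-OE metastases (57 without tumors 2 and 3).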
